A study of Mus musculus with 28 samples.

Results

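The phagocyte NADPH oxidase is the enzyme with which macrophages and neutrophils turn oxygen into superoxide. Its subunit genes Cybb, Cyba, Ncf1, Ncf4 and Rac2 were followed here in mouse bone marrow-derived macrophages. Every probe set whose platform annotation names 1 of these genes was taken, whatever its values, which gave 10 probe sets for 5 genes out of 45037 probe sets tested and 18193 genes measured. Cybb had 3 probe sets, Ncf1 had 3, Rac2 had 2, and Cyba and Ncf4 had 1 each. The study asked how macrophages respond when Nrf2, a transcription factor that turns on antioxidant genes, is released from its repressor Keap1.

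In the resting cell the membrane part of the enzyme, flavocytochrome b558, consists of gp91phox, encoded by Cybb, and p22phox, encoded by Cyba. The cytosolic proteins p47phox, encoded by Ncf1, and p40phox, encoded by Ncf4, move to that membrane core on stimulation, together with p67phox and with the GTPase Rac2. Electrons then pass from NADPH through gp91phox to oxygen, so the enzyme depends on the NADPH supply of the cell and on the removal of its products.

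RNA was hybridised to 28 Affymetrix arrays in 7 groups of 4. The macrophages were grown from the marrow of 12-week-old animals of strain C57BL/6 J. The compound experiment held 16 arrays in 4 groups: Nrf2+/+ cells (WT) with DMSO, Nrf2+/+ cells with RA839, Nrf2-/- cells (KO) with DMSO, and Nrf2-/- cells with RA839, a small molecule that binds Keap1. These cells were incubated for 4 h in medium with 0.2% DMSO in every group, and the sources used here do not give the RA839 concentration on the arrays. The siRNA experiment held 12 arrays in 3 groups, all of Nrf2+/+ cells, with a control siRNA (siControl) or 1 of 2 siRNAs against Keap1 (siKeap1-1 and siKeap1-2). They do not give the time after transfection either. The design text calls the arrays of a group biological replicates and does not say whether they share animals or cultures, so p-values measure the spread between these arrays. Each value is a log2 expression value made by the authors with RMA, and a difference of 1 is a doubling. Values of different probe sets depend on their probes, so levels were compared only within a probe set.

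The labels were checked first. Nfe2l2, which encodes Nrf2, read 12.72 ± 0.20 in WT with DMSO and 3.40 ± 0.11 in KO with DMSO (SD, n = 4). Keap1 was 11.09 ± 0.10 in siControl cells, 9.06 ± 0.09 after siKeap1-1 and 9.26 ± 0.15 after siKeap1-2 (SD, n = 4). On 1 array, WT with RA839 number 2, the Gapdh 3′ probe set exceeded the 5′ one by 3.74, against 0.77 to 1.00 on the other compound arrays, a difference that widens when RNA is degraded. Its weight is shown by giving results of the RA839 response in WT cells with and without it. The mean level of 12 macrophage markers lay between 11.20 and 11.96 over the 28 arrays, and that of 13 neutrophil markers between 5.69 and 7.38. Macrophages and neutrophils both express the oxidase, and in such bulk samples fewer cells of a type and less RNA per cell cannot be told apart.

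RefSeq promoter sequences of assembly GRCm38.p6 were matched for 3 of the 5 genes, namely Cybb, Cyba and Ncf1. Those of the membrane pair are shown because Cybb passed the threshold with both Keap1 siRNAs and Cyba with neither. The first 2 runs are the 250 bases before the annotated start of each gene, at chrX:9469325-9469574 for Cybb and chr8:122432941-122433190 for Cyba, both on the minus strand and written 5′ to 3′. The third run lies around the Cybb start, at chrX:9469298-9469327, and its capitals mark GAGGAA, a form of the ETS core, read on the opposite strand. That match begins 9 bases past the annotated start, not before it.
Cybb, before the start: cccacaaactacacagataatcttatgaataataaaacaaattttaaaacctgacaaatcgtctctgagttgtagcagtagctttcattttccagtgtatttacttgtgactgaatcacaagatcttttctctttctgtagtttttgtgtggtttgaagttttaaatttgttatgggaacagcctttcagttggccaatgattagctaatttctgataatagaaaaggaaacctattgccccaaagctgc
Cyba, before the start: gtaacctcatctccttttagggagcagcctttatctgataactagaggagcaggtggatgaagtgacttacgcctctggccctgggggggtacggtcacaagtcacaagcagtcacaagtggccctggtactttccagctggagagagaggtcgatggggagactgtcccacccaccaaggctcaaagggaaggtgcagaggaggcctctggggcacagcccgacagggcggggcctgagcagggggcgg
Cybb, around the start: tgctgttttcatTTCCTCatcagaagaaga
Both strands of the 300 bases from 250 before to 50 after each start were searched for 2 motifs. They were GAGGAA, a form of the core that PU.1 and other ETS factors bind, and TGACNNNGC, the core of the antioxidant response element that Nrf2 binds. Other forms of the ETS core were not searched. GAGGAA had 1 match in Cybb and 0 in Cyba and Ncf1, and 28.3% of 32851 promoters of that length hold it. TGACNNNGC had 0 matches in the 3 promoters, and 12.4% of all promoters hold it. A match or its absence in this window is a description of the letters only.

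Lowering Keap1 with siRNA was followed by lower Cybb and Ncf4 transcript, while no difference in Cyba passed the threshold. With siKeap1-1, 5 of the 10 probe sets fell and 0 rose (limma, adjusted p under 0.05 over 45037 probe sets), and these 5 cover Cybb, Ncf4 and Rac2. Over all probe sets, 9.55% passed in either direction and 4.37% fell, or 7.79% of those brighter than the median, as all of the 5 are. With siKeap1-2, 4 of the 10 fell and 0 rose, which cover Cybb and Ncf4. Over all probe sets, 6.78% passed with that siRNA and 3.14% fell, or 5.62% of the brighter ones. The median log2 difference of the 10 probe sets was -0.29 with siKeap1-1 and -0.21 with siKeap1-2, against medians of 0.00 and 0.01 over all probe sets. On 6 of 10 probe sets every siKeap1-1 array lay below every siControl array, as on 7.16% of all probe sets, and with siKeap1-2 this held on 5 of 10, as on 7.33% of all. Both siRNA groups were set against the same 4 siControl arrays, so their values are given side by side and do not count as separate evidence. The genes were chosen with earlier results of these data known, so setting the counts beside the shares over all probe sets is no test.

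Cybb, the catalytic subunit, fell on each of its 3 probe sets with each siRNA. Probe set 1436779_at read 13.28, 13.24, 13.25 and 13.32 on the siControl arrays 1 to 4, 12.98, 13.02, 12.85 and 13.06 with siKeap1-1, and 12.98, 12.94, 12.98 and 12.90 with siKeap1-2. The siControl arrays stood above all 8 others, and the 2 Keap1 siRNA groups overlapped each other. The fall was 0.30 ± 0.06 (SE, limma adjusted p = 0.0073) with siKeap1-1 and 0.33 ± 0.06 (adjusted p = 0.0055) with siKeap1-2. Probe set 1422978_at read 11.64, 11.60, 11.58 and 11.53 on the siControl arrays, 11.22, 11.21, 11.06 and 11.02 with siKeap1-1, and 11.25, 11.11, 11.17 and 10.85 with siKeap1-2. Here too every siControl array lay above every Keap1 siRNA array. Its fall was the largest of the 3 in both groups, 0.46 ± 0.09 (limma adjusted p = 0.00502) with siKeap1-1 and 0.49 ± 0.09 (adjusted p = 0.00432) with siKeap1-2, or 1.38-fold and 1.41-fold lower. On 1436778_at the values were 13.06, 13.04, 13.06 and 12.93 for siControl, 12.75, 12.77, 12.81 and 12.72 with siKeap1-1, and 12.67, 12.68, 12.71 and 12.57 with siKeap1-2. The 3 groups did not overlap on this probe set, with siControl highest and siKeap1-2 lowest. It fell by 0.26 ± 0.06 (limma adjusted p = 0.0117) and by 0.37 ± 0.06 (adjusted p = 0.00207). The step between the 2 Keap1 siRNAs, 0.10 ± 0.06 (adjusted p = 0.434), did not pass.

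Cybb kept these calls when any 1 array of the siRNA experiment was left out. They were lost when all 28 arrays shared 1 estimate of the spread, where limma adjusted p ran from 0.071 to 0.358 over the 6 values.

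Cyba, which encodes the partner that stabilises gp91phox, had the narrowest span of group means among the 10 probe sets in the siRNA experiment. In the compound experiment it did so with all arrays, but not without array 2 of WT with RA839. The siControl arrays gave 14.51, 14.48, 14.48 and 14.46, the siKeap1-1 arrays 14.52, 14.51, 14.54 and 14.48, and the siKeap1-2 arrays 14.49, 14.49, 14.48 and 14.43, where the highest value of any probe set on these arrays was 15.18 to 15.24. All 3 groups overlapped. The difference from siControl was 0.03 with siKeap1-1 (95% confidence interval -0.08 to 0.14, limma adjusted p = 0.81) and -0.01 with siKeap1-2 (-0.12 to 0.10, adjusted p = 0.934). A probe set near the top of the range can compress differences, and whether this one did was not tested. Within each array, Cybb 1436779_at minus Cyba was -1.21 ± 0.04 with siControl, -1.54 ± 0.12 with siKeap1-1 and -1.52 ± 0.02 with siKeap1-2 (SD, n = 4). The change in this difference was -0.33 with siKeap1-1 and -0.32 with siKeap1-2. Each had a two-sided exact permutation p of 0.0286, the smallest that 4 against 4 arrays can give, and an adjusted p of 0.0667 over 14 such tests.

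**Figure D1:**
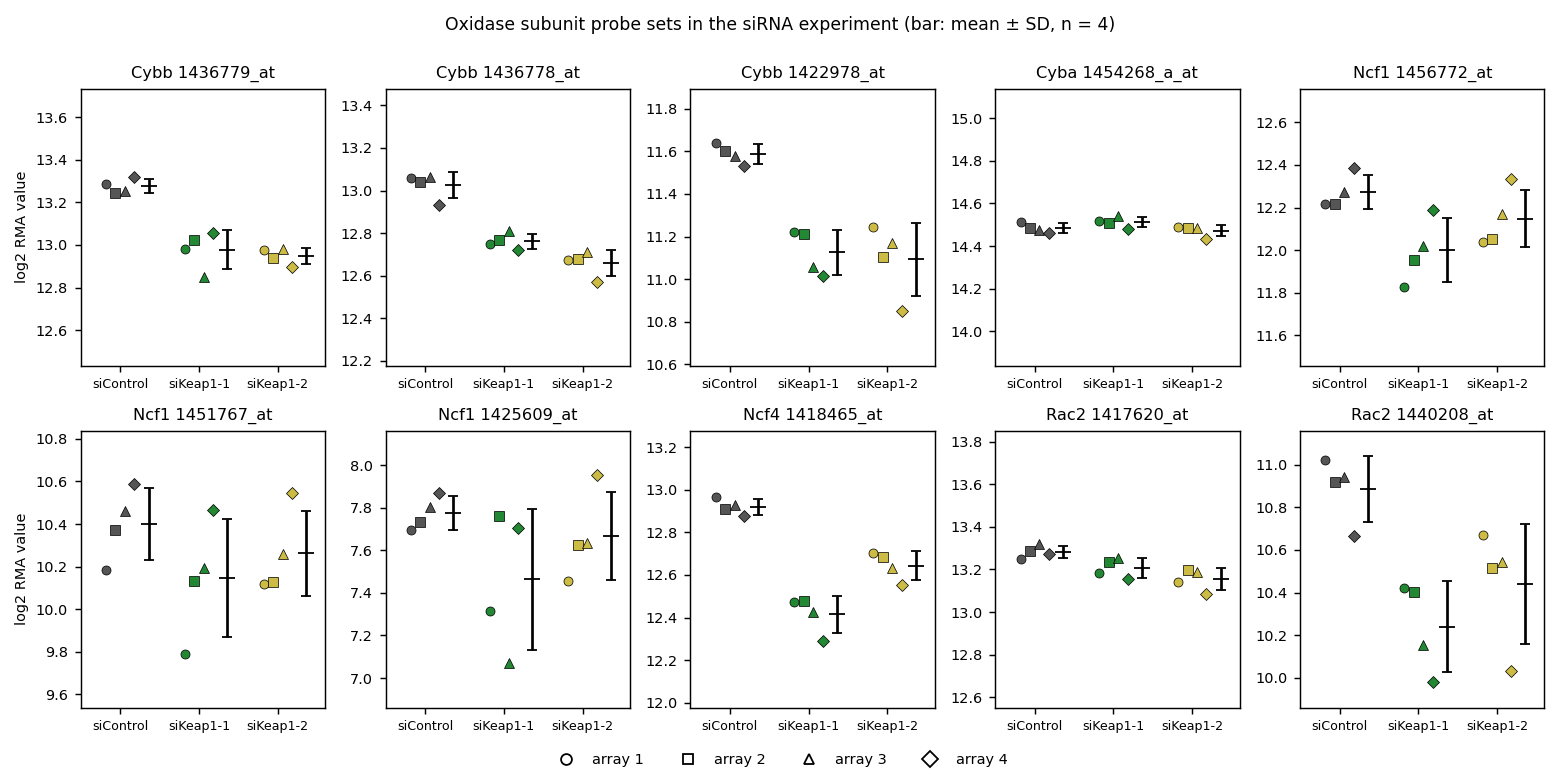
Log2 RMA values (vertical axis, log2 scale, each panel with its own range) of the 10 oxidase subunit probe sets on the 12 arrays of the siRNA experiment, by group; symbols give the array number and bars the mean ± SD of 4 arrays. The siControl arrays lie above all Keap1 siRNA arrays for the 3 Cybb probe sets and for Ncf4, and the groups overlap for Cyba, with siControl at 14.46 to 14.51.

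Ncf1 encodes the organiser p47phox, which is phosphorylated on stimulation and carries the cytosolic proteins to the membrane. No Ncf1 probe set passed the threshold with either siRNA in the fit without pairing. On 1456772_at the readings were 12.21, 12.22, 12.27 and 12.39 on the siControl arrays, 11.83, 11.96, 12.02 and 12.19 with siKeap1-1, and 12.04, 12.05, 12.17 and 12.33 with siKeap1-2. In every group array 1 was lowest and array 4 highest, and every siKeap1-1 array lay below every siControl array. The difference was -0.27 ± 0.09 (SE, limma adjusted p = 0.0826) with siKeap1-1 and -0.12 ± 0.09 (adjusted p = 0.5) with siKeap1-2. With the replicate number as a block, limma gave an adjusted p of 0.00665 for siKeap1-1 and 0.157 for siKeap1-2. On 1451767_at the arrays read 10.18, 10.37, 10.46 and 10.59 on the siControl arrays, 9.79, 10.13, 10.19 and 10.47 with siKeap1-1, and 10.12, 10.13, 10.26 and 10.55 with siKeap1-2. The groups overlapped, but all 4 same-numbered pairs were lower with each Keap1 siRNA. Its difference with siKeap1-1 was -0.25 ± 0.14 (limma adjusted p = 0.337, or 0.0311 with the block). With siKeap1-2 it was -0.14 ± 0.14 (limma adjusted p = 0.658, or 0.229 with the block). The third, 1425609_at, was the dimmest, with 7.69 to 7.87 in siControl, 7.07 to 7.76 with siKeap1-1 and 7.46 to 7.95 with siKeap1-2. It passed with neither siRNA, paired or not (limma adjusted p with the block 0.116 and 0.626).

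Ncf4 encodes p40phox, a phosphoinositide-binding subunit that supports oxidase activity on phagosomes. Its probe set 1418465_at read 12.96, 12.91, 12.93 and 12.88 on the siControl arrays, 12.47, 12.48, 12.43 and 12.29 with siKeap1-1, and 12.70, 12.68, 12.63 and 12.55 with siKeap1-2. The 3 groups did not overlap, in the order siControl, siKeap1-2, siKeap1-1. Ncf4 fell by 0.50 ± 0.06 (SE, limma adjusted p = 0.000289) with siKeap1-1, or 1.42-fold. With siKeap1-2 it fell by 0.28 ± 0.06 (limma adjusted p = 0.0185). The siKeap1-1 call held in all 22 alternatives run. The siKeap1-2 call ended when siControl array 3, siKeap1-2 array 3 or siKeap1-2 array 4 was left out, with an adjusted p of up to 0.0543. The difference between the 2 Keap1 siRNAs, -0.23 ± 0.06, had a limma adjusted p of 0.0671 without and 0.0205 with the replicate block.

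Between siKeap1-1 and siKeap1-2, 0 of the 10 oxidase probe sets passed the threshold (limma, 1 at an unadjusted p under 0.05, and 1 with the replicate block), against 4.01% of all probe sets. That 1 was Ncf4 in both cases. The order of the siRNAs differed among the genes: siKeap1-1 was lower than siKeap1-2 for Ncf4, Ncf1 and Rac2 1440208_at, and higher for the 3 Cybb probe sets, Cyba and Rac2 1417620_at. These orders are values, and none of them passed in the fit without pairing.

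Rac2, the haematopoietic Rac GTPase that switches the assembled enzyme on, gave different values on its 2 probe sets. The brighter one, 1417620_at, read 13.25, 13.29, 13.32 and 13.27 on the siControl arrays, 13.18, 13.24, 13.25 and 13.16 with siKeap1-1, and 13.14, 13.20, 13.19 and 13.08 with siKeap1-2. These lay close together, and only the siKeap1-2 arrays were all below the siControl arrays. The difference was -0.08 ± 0.05 (SE, limma adjusted p = 0.469) with siKeap1-1 and -0.13 ± 0.05 (adjusted p = 0.2) with siKeap1-2. The second, 1440208_at, read 11.02, 10.92, 10.94 and 10.66 on the siControl arrays, 10.42, 10.40, 10.15 and 9.98 with siKeap1-1, and 10.67, 10.52, 10.54 and 10.03 with siKeap1-2. It fell by 0.65 ± 0.14 (limma adjusted p = 0.0131) with siKeap1-1, whose arrays were all below siControl. That call was lost with all 28 arrays in 1 fit (limma adjusted p = 0.0783). With siKeap1-2 its difference was -0.45 ± 0.14 (limma adjusted p = 0.0923, or 0.0035 with the replicate block), and the groups overlapped by 1 array. Within arrays, 1440208_at minus 1417620_at shifted by -0.57 with siKeap1-1 (exact permutation p = 0.0286, adjusted p = 0.0667) and by -0.32 with siKeap1-2 (exact permutation p = 0.0571, adjusted p = 0.0999). The 2 probe sets gave unequal values for the Rac2 transcript, and the part of the transcript each measures is not analysed here.

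**Figure D2:**
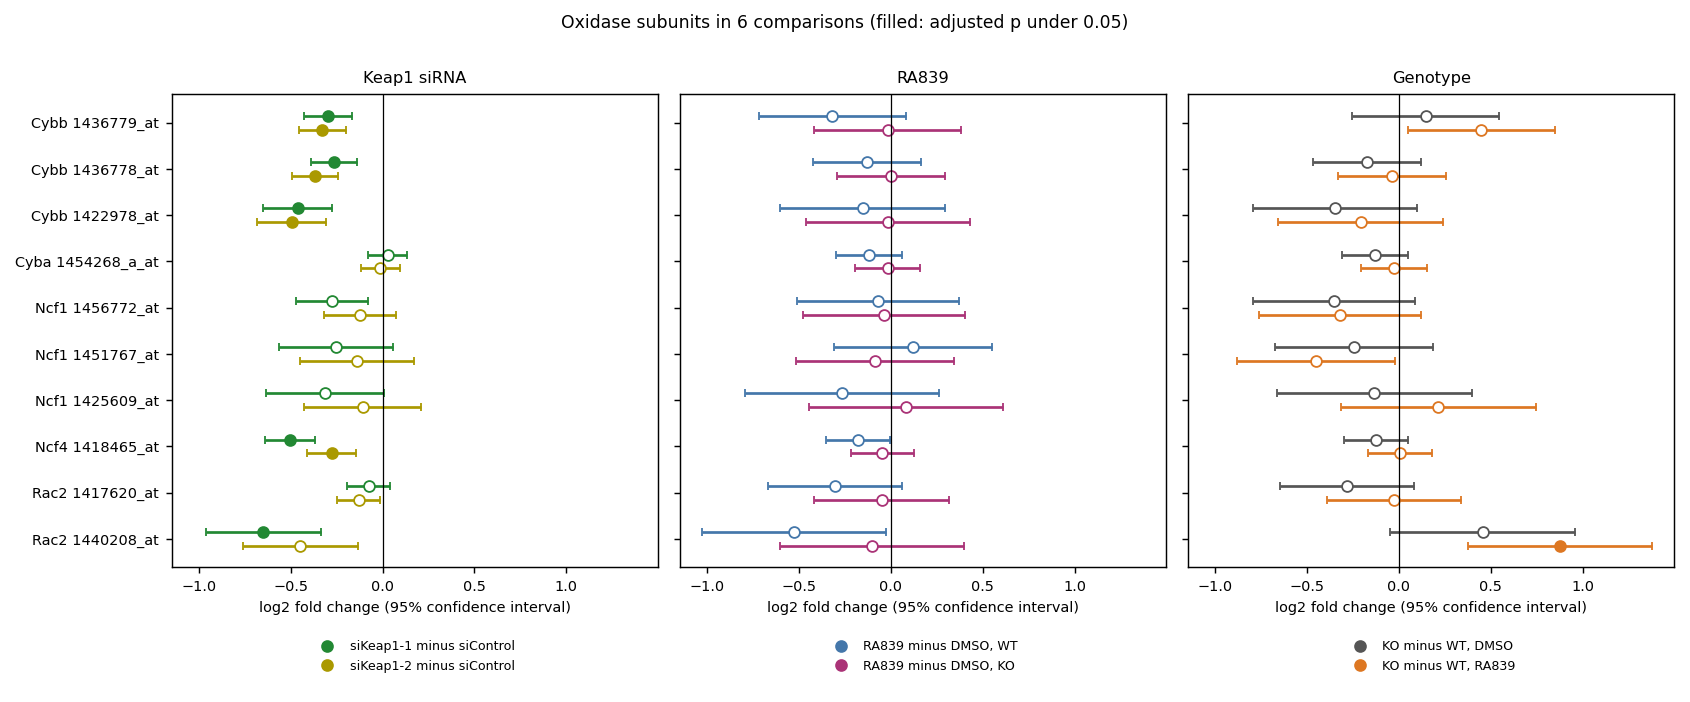
Log2 fold changes (horizontal axis) with 95% confidence intervals of the 10 oxidase subunit probe sets (vertical axis) in 6 comparisons, from limma with 4 arrays a group; filled points have an adjusted p under 0.05 over 45037 probe sets. Filled points appear for Cybb and Ncf4 with both Keap1 siRNAs, for Rac2 1440208_at with siKeap1-1 and, in the opposite direction, for Rac2 1440208_at in KO against WT cells under RA839 at 0.88.

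Over 4 h, RA839 moved no oxidase subunit past the threshold in WT cells. None of the 10 probe sets passed (limma adjusted p 0.503 to 0.939, with 2 at an unadjusted p under 0.05), against 0.344% of all probe sets. The replicate block gave 1, Rac2 1440208_at. The differences ran from -0.53 to 0.12 with a median of -0.16, against -0.02 over all probe sets, and 9 of 10 were below 0. These values moved with array 2 of the RA839 group, the one with the widened Gapdh difference. Without it the range was -0.45 to 0.12, the median was -0.04, and 6 of 10 were below 0.

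Cybb 1436779_at shows the weight of that array. It read 12.59, 12.62, 12.52 and 12.67 in WT with DMSO and 12.54, 11.50, 12.48 and 12.61 with RA839. The groups overlapped and array 2 alone was low. The difference was -0.32 ± 0.19 (SE, limma adjusted p = 0.614) with all arrays and -0.06 ± 0.10 (adjusted p = 0.963) without that array. Cyba read 14.40, 14.38, 14.37 and 14.41 with DMSO and 14.40, 14.01, 14.35 and 14.33 with RA839, again with array 2 alone low, and its difference was -0.12 (95% confidence interval -0.30 to 0.06) with all arrays and -0.03 ± 0.06 (SE, limma adjusted p = 0.965) without array 2. Ncf4 read 12.55, 12.35, 12.56 and 12.48 with DMSO and 12.36, 12.18, 12.36 and 12.34 with RA839. Each of its 4 same-numbered pairs was lower with RA839, and the difference was -0.18 ± 0.08 (limma adjusted p = 0.516, unadjusted p = 0.045), and -0.13 ± 0.08 (adjusted p = 0.728) without array 2. For Ncf1, 1425609_at differed by -0.26, 1456772_at by -0.07 and 1451767_at by 0.12 with all arrays. Without array 2 these values were -0.05, 0.10 and 0.12, so the sign for 1456772_at turned with that array.

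Rac2 1440208_at had the lowest value of the WT response. It read 10.32, 10.30, 10.10 and 9.87 with DMSO and 9.94, 9.40, 9.57 and 9.57 with RA839. All 4 same-numbered pairs were lower with RA839, while the groups overlapped through DMSO array 4. The difference was -0.53 ± 0.24 (SE, limma adjusted p = 0.503), and -0.45 ± 0.26 (adjusted p = 0.728) without RA839 array 2. With the replicate number as a block it was -0.53 ± 0.10 (limma adjusted p = 0.0414), and without both WT arrays numbered 2 the blocked value was -0.40 ± 0.07 (adjusted p = 0.0386). Rac2 1417620_at differed by -0.30 ± 0.17 with all arrays (limma adjusted p = 0.599) and by -0.10 ± 0.12 without RA839 array 2 (adjusted p = 0.929).

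In KO cells, RA839 left the 10 probe sets between -0.10 and 0.08 of their DMSO level. Of the 10, 0 passed (limma adjusted p = 1 for each, 0 at an unadjusted p under 0.05, and 0 with the replicate block). Over all probe sets 0% passed, with 860 of 45037 at an unadjusted p under 0.05. The 95% confidence interval was -0.20 to 0.16 for Cyba and -0.22 to 0.13 for Ncf4, and the wider -0.60 to 0.40 for Rac2 1440208_at. The difference of the RA839 response between WT and KO cells was tested directly, and 0 of the 10 passed (limma adjusted p = 1, 0 at an unadjusted p under 0.05 and 0 with the replicate block), against 0.0377% of all probe sets. The largest such difference, for Rac2 1440208_at, was -0.42 ± 0.33. Without array 2 of WT with RA839 it was -0.35 ± 0.35, and 0 of the 10 passed.

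**Figure D3:**
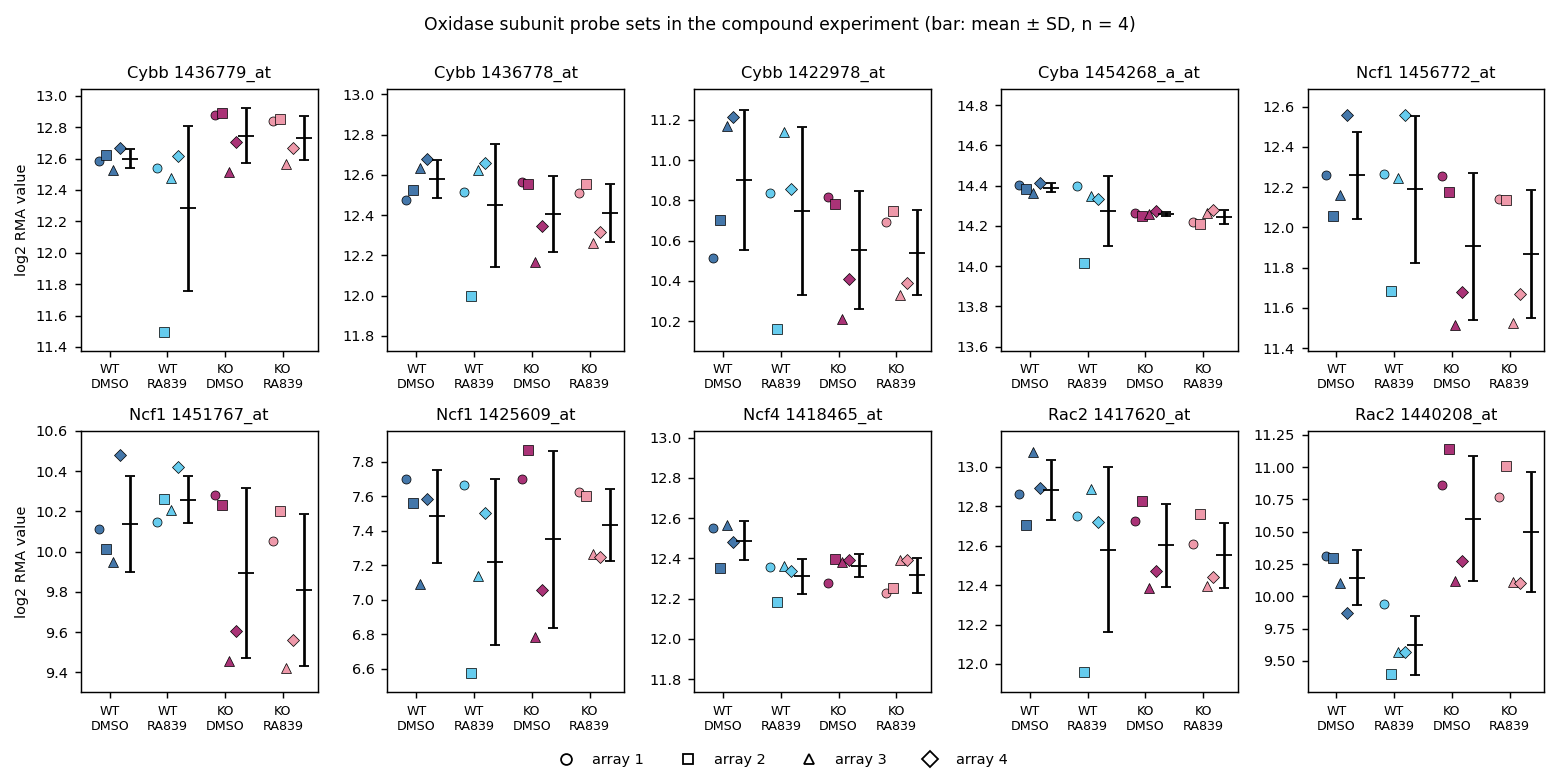
Log2 RMA values (vertical axis, log2 scale, each panel with its own range) of the 10 oxidase subunit probe sets on the 16 arrays of the compound experiment, by genotype and treatment; symbols give the array number and bars the mean ± SD of 4 arrays. Array 2 of WT with RA839 is the lowest point of its group on 9 of 10 probe sets, and within KO, arrays 1 and 2 lie above 3 and 4 on 8 of 10.

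Loss of Nrf2 was not followed by a detectable difference in any oxidase subunit in DMSO. Of the 10 probe sets 0 passed (limma adjusted p 0.188 to 0.751, 0 at an unadjusted p under 0.05), although 21.3% of all probe sets passed in this comparison. The differences ran from -0.35 to 0.45 with a median of -0.15, against 0.00 over all probe sets. Cyba read 14.26, 14.25, 14.26 and 14.27 in KO, all below the 14.37 to 14.41 of WT, so its groups did not overlap. That held for 1 of the 10 probe sets, against 26.7% of all probe sets. Its difference was -0.13 ± 0.08 (SE, limma adjusted p = 0.301), and -0.13 ± 0.06 (adjusted p = 0.108) when array 2 of WT with RA839 was left out of the shared estimate of the spread. Without that array and the WT DMSO array of the same number the lowest adjusted p of the 10 was 0.0542, and 0 passed.

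Under RA839, 1 of 10 probe sets differed between the genotypes (limma, with 3 at an unadjusted p under 0.05), against 26.3% of all probe sets. That was Rac2 1440208_at, which read 10.77, 11.01, 10.11 and 10.10 in KO and 9.94, 9.40, 9.57 and 9.57 in WT. Its groups did not overlap, as on 27.6% of all probe sets, and it was higher in KO by 0.88 ± 0.24 (SE, limma adjusted p = 0.0126). The value was 0.80 (limma adjusted p = 0.0348) without WT array 2. In DMSO the same probe set read 10.86, 11.14, 10.12 and 10.28 in KO, overlapping WT, and differed by 0.45 ± 0.24 (adjusted p = 0.188). The brighter Rac2 1417620_at differed by -0.28 ± 0.17 in DMSO (limma adjusted p = 0.267) and by -0.03 ± 0.17 under RA839 (adjusted p = 0.926). Under RA839, Cybb 1436779_at differed by 0.45 ± 0.19 (limma adjusted p = 0.0918), and by 0.19 ± 0.10 (adjusted p = 0.205) without WT array 2. Ncf1 1451767_at differed by -0.45 ± 0.20 under RA839 (limma adjusted p = 0.115). Within arrays, 1440208_at minus 1417620_at was higher in KO by 0.74 in DMSO and by 0.90 under RA839, each with an exact permutation p of 0.0286 and an adjusted p of 0.0667. Cybb 1436779_at minus Cyba was higher in KO by 0.28 in DMSO (exact permutation p = 0.0571, adjusted p = 0.0999). Under RA839 it was higher in KO by 0.48 (exact permutation p = 0.0286, adjusted p = 0.0667), opposite in sign to its change with the Keap1 siRNAs.

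The KO arrays fell into pairs by number on most members. For Cybb 1436779_at, KO with DMSO read 12.88, 12.89, 12.51 and 12.70, and KO with RA839 read 12.84, 12.86, 12.56 and 12.67. For Ncf1 1456772_at, KO with DMSO read 12.25, 12.17, 11.52 and 11.68, and KO with RA839 read 12.14, 12.14, 11.52 and 11.67. In both KO groups arrays 1 and 2 were above arrays 3 and 4 on 8 of the 10 probe sets, all but Cyba and Ncf4, as on 24% and 24.6% of all probe sets. In WT this held on 1 of 10 with DMSO and on 0 of 10 with RA839, against 22.5% and 19.2% of all probe sets. Same-numbered arrays thus shared their deviation within a genotype, and the labels do not say what the number stands for. This spread enters the error of every comparison of KO with WT: Ncf1 1456772_at was 12.26 ± 0.21 in WT with DMSO and 11.91 ± 0.36 in KO with DMSO (SD, n = 4).

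Ordered by mean level, neighbouring groups of the compound experiment overlapped on each of the 10 probe sets. For Cyba that overlap of WT and KO came from array 2 of WT with RA839 alone: without it, both WT groups lay above both KO groups. The group means of Cyba spanned 0.15 and those of Rac2 1440208_at spanned 0.98, the narrowest and widest of the 10 with all arrays. Without array 2 of WT with RA839, Ncf1 1425609_at had a narrower span (0.13) than Cyba (0.15). In the siRNA experiment siControl was highest on 9 of 10 probe sets and stood clear of both others on the 3 Cybb probe sets and Ncf4. Shares over all probe sets were not counted for these orders and overlaps. For each siRNA alone, all its arrays lay below siControl on 7.16% (siKeap1-1) and 7.33% (siKeap1-2) of all probe sets.

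Of the direct partners and other subunits of the oxidase, 7 were measured and Hvcn1 was the only one to pass with a Keap1 siRNA. Over all probe sets 9.55% passed with siKeap1-1 and 6.78% with siKeap1-2. Hvcn1 encodes the voltage-gated proton channel that carries out the charge the oxidase moves. It read 13.05, 13.11, 13.19 and 13.19 on the siControl arrays, 13.57, 13.61, 13.67 and 13.64 with siKeap1-1, and 13.53, 13.64, 13.74 and 13.70 with siKeap1-2. Every Keap1 siRNA array was above every siControl array. It rose by 0.49 ± 0.06 (SE, limma adjusted p = 0.000445) with siKeap1-1 and by 0.52 ± 0.06 (adjusted p = 0.000378) with siKeap1-2, opposite in sign to Cybb and Ncf4. In the compound experiment Hvcn1 was 13.36 ± 0.25 in WT and 12.15 ± 0.11 in KO with DMSO (SD, n = 4), without overlap, and was lower in KO by 2.31-fold (limma adjusted p = 2.39e-05). Under RA839 it was lower in KO by 2.64-fold (adjusted p = 3.48e-06), and RA839 in WT gave 0.17 ± 0.14 (adjusted p = 0.709). Leaving out any 1 array ended none of these 4 Hvcn1 calls.

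**Figure D4:**
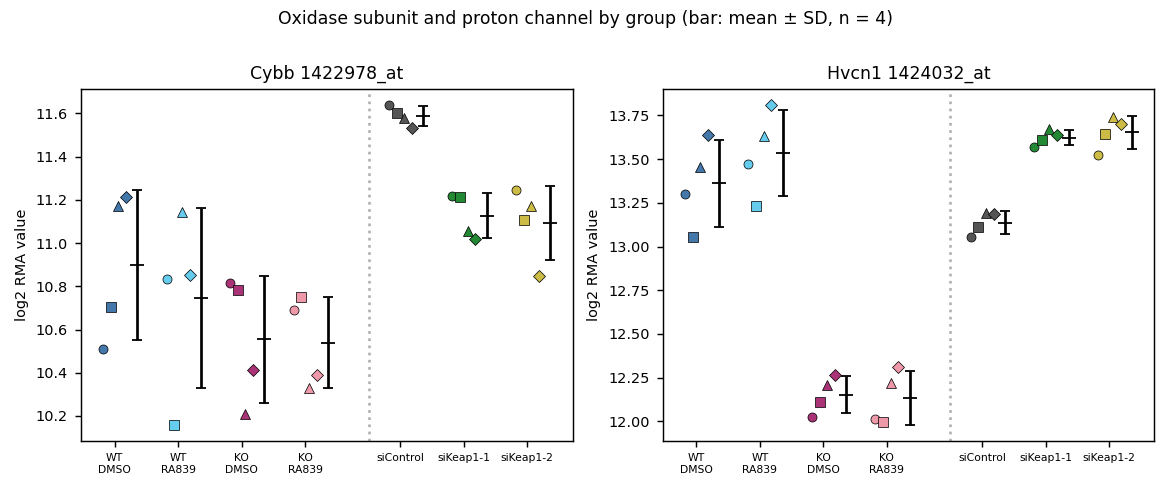
Log2 RMA values (vertical axes, log2 scale) of Cybb 1422978_at and of the proton channel Hvcn1 in all 7 groups, compound experiment left and siRNA experiment right of the dotted line; symbols give the array number and bars the mean ± SD of 4 arrays. Hvcn1 lies lower in KO (12.00 to 12.31) than in WT (13.05 to 13.81) and higher with the Keap1 siRNAs, while Cybb overlaps between the genotypes and lies lower with the Keap1 siRNAs.

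The other measured partners gave small values. Rac1, the widely expressed relative of Rac2, differed by -0.05 and -0.02 with siKeap1-1 and siKeap1-2 (limma adjusted p = 0.658 and 0.86), and was higher in KO under RA839 by 0.26 ± 0.07 (adjusted p = 0.0123). Rap1a, a small GTPase that copurifies with the flavocytochrome, differed by -0.11 and -0.09 with the siRNAs (limma adjusted p = 0.266 and 0.42). Cybc1, the chaperone needed for gp91phox and p22phox protein, differed by -0.26 in KO with DMSO (limma adjusted p = 0.164). Of 5 measured genes of the other NADPH oxidases, 0 passed with either siRNA (limma, and 0 with the block). Over all probe sets 9.55% passed with siKeap1-1 and 6.78% with siKeap1-2. Duoxa1 was lower in KO by 0.45 on the log2 scale (limma adjusted p = 0.0237).

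NADPH, the fuel of the oxidase, is made by a small set of enzymes, of which 10 were listed and 9 were measured. G6pdx was not measured, as no probe set named it alone. With each Keap1 siRNA 4 of the 9 rose and 1 fell. Me1, malic enzyme, rose by 2.15 ± 0.19 (SE, limma adjusted p = 2.84e-05) and by 2.05 ± 0.19 (adjusted p = 4.91e-05), and Taldo1, transaldolase of the pentose phosphate pathway, rose by 0.44 and 0.71. In KO with DMSO 5 of the 9 were lower and 0 higher, with Me1 lower by 6.65-fold (limma adjusted p = 7.84e-09). RA839 raised 1 of the 9 in WT, Me1, by 0.82 ± 0.15 (adjusted p = 0.0205), or 2 of the 9 with the replicate block. Of 14 listed genes that remove superoxide and peroxide 12 were measured, without Prdx1 and Prdx5. Of these 12, 1 rose and 1 fell with siKeap1-1, 3 rose and 1 fell with siKeap1-2, and 6 were lower in KO with DMSO. With the replicate block 2 rose and 1 fell with siKeap1-1, and 3 rose and 2 fell with siKeap1-2. Txnrd1, thioredoxin reductase, rose by 0.46 and 0.44 with the siRNAs and was lower in KO by 2.78-fold (limma adjusted p = 4.63e-07). Over all probe sets 9.55% passed with siKeap1-1, 6.78% with siKeap1-2, 21.3% in KO with DMSO and 0.344% with RA839 in WT. With the replicate block 6982 of 45037 passed with siKeap1-1, 5674 with siKeap1-2 and 579 with RA839 in WT.

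Among 12 receptors that trigger the oxidase, 2 fell with siKeap1-1 and 5 with siKeap1-2, and 0 rose. With the replicate block 5 and 6 fell. Fcgr1, the high-affinity IgG receptor, fell by 0.72 ± 0.11 and 1.06 ± 0.11 (SE, limma adjusted p = 0.00152 and 0.000124), and Tlr2, a receptor for bacterial lipoproteins, fell by 0.36 ± 0.08 and 0.85 ± 0.08 (adjusted p = 0.0142 and 5.4e-05). In KO with DMSO 2 of the 12 were higher, among them Fcgr1 by 1.98 ± 0.40, and 2 were lower, among them Itgam, the complement receptor chain, by 1.04 ± 0.13 on the log2 scale. Of 17 measured kinases, Rac exchange factors and dissociation inhibitors, 1 rose and 2 fell with siKeap1-1, and 0 rose and 3 fell with siKeap1-2. Prex1, a Rac exchange factor, fell by 0.63 with siKeap1-1, and Tiam1, another, fell by 0.49 with siKeap1-2. Counts of falls moved with the replicate block, to 4 and 6 of the 17. Of 16 transcription factors known from the promoters of these genes, 2 fell with siKeap1-1, Cux1 by 0.51 and Irf2 by 0.27, and 1 fell with siKeap1-2, Jun by 0.23 (2 and 2 with the replicate block). Spi1, which encodes PU.1, differed by -0.08 and -0.22 (limma adjusted p = 0.63 and 0.156). Over all probe sets 9.55% passed with siKeap1-1, 6.78% with siKeap1-2 and 21.3% in KO with DMSO, in either direction. With the replicate block 6982 of 45037 passed with siKeap1-1 and 5674 with siKeap1-2. Whether the counts of these lists differ from those shares was not tested.

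Cell type markers were read beside these counts. Of 12 macrophage markers 3 fell with siKeap1-1 and 4 with siKeap1-2 (limma), among them Msr1, Fcgr1 and Cd14 with both, and 0 rose. With the replicate block 5 fell with each. Their mean level was 11.80 to 11.96 on the siControl arrays, 11.47 to 11.86 with siKeap1-1 and 11.46 to 11.67 with siKeap1-2. Of 13 neutrophil markers 2 rose with siKeap1-1 and 1 with siKeap1-2, and 0 fell, with mean levels of 6.36 to 7.30, 6.40 to 7.22 and 6.50 to 7.38. With the replicate block 3 neutrophil markers rose with siKeap1-1, and 2 rose and 1 fell with siKeap1-2. Of 3 measured monocyte markers 1 fell with siKeap1-1, Fn1 by 0.95 (limma adjusted p = 0.00285), and 0 passed with siKeap1-2, where Fn1 differed by -0.57 (adjusted p = 0.0566). With the replicate block 2 of the 3 fell with each siRNA, Fn1 and Ccr2. The mean level of the monocyte markers was 7.78 to 8.02 on the siControl arrays, 7.26 to 7.53 with siKeap1-1 and 7.47 to 7.50 with siKeap1-2, so every Keap1 siRNA array lay below every siControl array. Part of the macrophage and monocyte markers thus moved in the direction of Cybb and Ncf4, and their part in the result was not tested. Over all probe sets 9.55% passed with siKeap1-1 and 6.78% with siKeap1-2, or 6982 and 5674 of 45037 with the replicate block. In KO with DMSO 2 of the 12 macrophage markers were higher and 2 lower, 3 of the 13 neutrophil markers were lower, S100a8, Ctsg and Ltf, and 1 of the 3 monocyte markers was higher, Fn1 by 1.34 (limma adjusted p = 0.00112), against 21.3% of all probe sets that passed in either direction.

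The genes most like each member were sought among 10793 genes by Pearson correlation of log2 values over the arrays of 1 experiment, as a description with no test. Over the 12 siRNA arrays, these were Sos2 (r = 0.97), P2rx7 and Mid1ip1 for Cybb, Wee1 (0.98), Enc1 and Mmp9 for Ncf4, Map3k5 (0.98), Zfp799 and Dcaf8 for Ncf1, P2ry6 (0.95), Arhgap25 and Prdx2 for Rac2, and Eif3k (0.94), Itpk1 and Ldhb for Cyba. Such values carry the differences between the 3 groups, which the arrays share. Over the 16 compound arrays, Prkaca (r = 0.99), Pfdn5 and Fcer1g were most like Cybb. Itgb1bp1, Ssu72 and Mrpl27 were most like Cyba (r = 0.97, 0.97 and 0.96). Alox5ap, Hpn and Klrb1a were most like Ncf1 (0.95, 0.94 and 0.94), Mrpl22, Ppargc1b and Snap29 most like Ncf4 (0.92, 0.88 and 0.87), and Brip1os, Capzb and Pld3 most like Rac2 (0.95, 0.95 and 0.94). For these 15 pairs r was 0.87 to 0.99 with all arrays and 0.84 to 0.96 without array 2 of WT with RA839. Ncf4 and Rac2 lie on the same chromosome with 10 protein-coding genes between them in the RefSeq table, and with siKeap1-1 Ncf4 and Rac2 1440208_at fell while the brighter Rac2 probe set did not pass.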

How the data were processed

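Per the submitters' processing notes the authors used RMA, a method that corrects background, normalizes the arrays to each other and combines the probes of a set. The deposited table gives log2 values. The sources used here do not name the RMA version. RMA shrinks differences of dim probe sets. Array medians were 5.61 to 5.71 in the compound and 5.91 to 5.96 in the siRNA experiment, so each experiment was fitted apart. The number of arrays, 4 a group, limits the precision. Of 45101 probe sets 64 were controls, and 34945 of the other 45037 named 1 gene in the platform annotation, 932 several and 9160 none.

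The tests used lmFit, with a coefficient for each group, and eBayes without a trend (limma 3.58.1, R 4.3.3), two-sided, with Benjamini-Hochberg adjusted p under 0.05 over 45037 probe sets, in 8 comparisons. The fitting was tested on simulated data with independent arrays, which do not hold the deviations that same-numbered arrays share here. Within-array differences used exact permutation tests over arrays. All probe sets of the 5 genes were described, and of each context list the counts and up to 3 genes with the smallest p, each read from its probe set with the highest mean. Members and lists were chosen with earlier results of these data known.

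Replicate numbers come from the labels. Same-numbered arrays deviated together (correlations over all probe sets of 0.20 to 0.40 in WT, 0.58 to 0.60 in KO and 0.11 to 0.63 in the siRNA experiment), each above the minimum of 0.1, but not between genotypes (-0.22 to -0.0081). The replicate block is therefore given beside calls of the 10 probe sets that it changes, and as counts for context lists. Alternatives were median centring, quantile normalization, array weights, a trended robust prior, 1 probe set per gene, brighter probe sets only, fewer or more groups in a fit, a threshold of 0.01, the block and leaving out each array.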

Additional observations from a re-analysis of the deposited data

Results flagged for a closer look

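Of 70 combinations of probe set and group, 6 had 1 array far from the other 3 by Dixon's criterion, and chance flags about 1 in 20 groups. Array 2 of WT with RA839, the array with the widened Gapdh difference, was low for Cybb 1436779_at (11.50, nearest other array 12.48), for Cyba (14.01, nearest 14.33) and for Ncf4 (12.18, nearest 12.34). Array 4 of siControl was low for Cybb 1436778_at (12.93, nearest 13.04). Array 4 of siKeap1-2 was low for Cyba (14.43, nearest 14.48), a gap of 0.05. Array 1 of KO with DMSO was low for Ncf4 (12.28, nearest 12.38).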

How the results depend on the processing

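Over the 10 probe sets, 8 comparisons and all alternatives, 1931 values kept their side of the threshold, 14 lost the call and 15 gained one. Of the values called in either setting, 0 reversed. Direction was not compared for values that passed in neither setting. Some of those changed sign, such as Ncf1 1456772_at for RA839 in WT without array 2 of that group. The 5 calls with siKeap1-1 became 1 with all 28 arrays in 1 fit, 2 with 1 probe set per gene (of 5) and 3 at an adjusted p under 0.01. The 4 with siKeap1-2 became 1 and 2 under the first pair of these. Leaving out 1 array gave 5 to 6 calls with siKeap1-1, 3 to 4 with siKeap1-2, 1 for KO against WT under RA839 and 0 in each other comparison. With the replicate block, siKeap1-1 had 7 calls, siKeap1-2 had 5, and RA839 in WT 1 (also 1 without both WT arrays numbered 2, chosen after seeing the data). Over all 45037 probe sets the block gave 6982, 5674 and 579 calls in these 3 comparisons, against 4301, 3053 and 155 without it. Between the Keap1 siRNAs the count was 1 with the replicate block, a trended robust prior, 1 probe set per gene or brighter probe sets only. KO against WT under RA839 gave 2 with all 28 arrays in 1 fit, and 0 with 1 probe set per gene, which leaves out Rac2 1440208_at, or at 0.01. The call gained with all 28 arrays was Cybb 1436779_at, higher in KO by 0.45 (limma adjusted p = 0.0243). A block within genotype could not be fitted for KO against WT. Apart from the effect of testing fewer probe sets or a stricter threshold, the cause of these shifts was not tested.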
